A study of Mus musculus with 2 samples.

Results

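A set of 10 long RNAs that make no protein was followed through total RNA libraries of megakaryocyte-erythroid progenitors (MEP), the bone marrow cells that give rise to red cells and platelets. The set held Malat1, Neat1, Kcnq1ot1, Dleu2, Tug1, Lncpint, Pvt1, Mir17hg, Mir142hg and Oip5os1. They were chosen by name, with no threshold on any level measured here. All 10 were found among 43346 annotated genes in both libraries. Oip5os1 stood in the annotation as 1700020I14Rik, a synonym at overlapping coordinates.

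The study measured 1 group, MEP primary cells of male C57BL/6J mice aged 5 to 6 weeks, in 2 libraries with 100 cells each. No genotype, drug or second condition was given for either library. RNA above 200 bases was sequenced, with spike-in RNAs added. The libraries carried biological replicate numbers 2 and 1 and came from 2 biosamples under 1 donor record, so the spread between them may be partly technical. How many mice each biosample pooled is not stated in the labels.

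Some long non-coding RNAs (lncRNAs) stay in the nucleus. Malat1 gathers in splicing speckles, Neat1 builds the bodies called paraspeckles, and Kcnq1ot1 coats and silences its imprinted neighbours on the paternal chromosome. Others are mainly known as precursors: Mir17hg, Mir142hg and Dleu2 carry microRNA hairpins that the Drosha complex cuts from the nuclear transcript. The microRNAs then guide Argonaute proteins to target RNAs, mostly by pairing through a short seed at their start. In blood progenitors the miR-17 cluster and miR-142 are known for control of growth and lineage choice, and miR-15a and miR-16 for restraint of the cell cycle.

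The microRNAs carried by the 3 hosts are shown first, because their seeds say which hosts feed the same target families. The mature sequences are those of RefSeq on GRCm38.p6, written 5′ to 3′, with the seed (bases 2 to 8) in capitals.
mmu-miR-17-5p (Mir17hg): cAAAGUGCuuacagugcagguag
mmu-miR-20a-5p (Mir17hg): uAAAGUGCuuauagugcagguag
mmu-miR-18a-5p (Mir17hg): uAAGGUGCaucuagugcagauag
mmu-miR-19a-3p (Mir17hg): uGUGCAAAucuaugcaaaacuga
mmu-miR-19b-3p (Mir17hg): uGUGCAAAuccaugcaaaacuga
mmu-miR-92a-3p (Mir17hg): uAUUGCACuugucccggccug
mmu-miR-15a-5p (Dleu2): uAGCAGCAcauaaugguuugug
mmu-miR-16-5p (Dleu2): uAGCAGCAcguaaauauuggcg
mmu-miR-142a-5p (Mir142hg): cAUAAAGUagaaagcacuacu
mmu-miR-142a-3p (Mir142hg): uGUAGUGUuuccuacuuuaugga
Within Mir17hg, miR-17-5p and miR-20a-5p shared the seed AAAGUGC, and miR-19a-3p and miR-19b-3p shared GUGCAAA. The Dleu2 pair, miR-15a-5p and miR-16-5p, shared AGCAGCA. No seed was shared between hosts. Identical copies of miR-19b-3p, miR-92a-3p and miR-16-5p are each encoded by 2 genes in the genome, so their hosts are not their only sources.

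Levels are given in TPM, a share of all transcripts that corrects for transcript length and so allows genes to be compared, and amounts of evidence as estimated read counts. The libraries held 51510347 counts in replicate 2 and 30016974 counts in replicate 1. All 6 MEP markers examined (Gata1, Klf1, Epor, Gfi1b, Kit and Itga2b) reached 10 TPM in both libraries, while Cd34 and Ly6a stayed under 1 TPM in both. The libraries stood apart in genes of other blood cells. The 8 neutrophil genes examined summed to 6.39 TPM in replicate 2 against 1882 TPM in replicate 1; all 8 were past 2-fold lower in replicate 2, and Ngp, Lcn2, Elane, Mpo and Ltf had 0 counts there. The 7 B-lineage genes summed to 126 TPM in replicate 2 against 7.14 TPM in replicate 1, all past 2-fold higher in replicate 2, and Vpreb1 had 0 counts in replicate 1. The 5 T and NK markers summed to 37.9 TPM in replicate 2 against 49.4 TPM in replicate 1. Among them 1, Cd3g, was past 2-fold lower in replicate 2, at 1.10 TPM against 12.6 TPM in replicate 1, and none was past 2-fold higher. In such bulk samples, fewer cells of a type and less RNA per cell cannot be told apart.

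Malat1 stood far above the other members, 8 members lay in a middle band, and Lncpint was the lowest. Mean levels in the band ran between 10.6 TPM for Kcnq1ot1 and 36.2 TPM for Tug1. Of the 10 members, 9 reached 1 TPM in both libraries, a level reached by 6.49% of the 6853 annotated lncRNA genes and 44.2% of protein-coding genes. A level of 10 TPM in both libraries was reached by 7 members, against 0.89% of lncRNA genes and 24.7% of protein-coding genes. The members were picked from well-studied RNAs, so these shares describe their level and test nothing. The order of mean levels was Malat1, Tug1, Mir142hg, Pvt1, Oip5os1, Dleu2, Neat1, Mir17hg, Kcnq1ot1 and Lncpint. Neighbours in that order overlapped in their values between libraries, except Malat1 over Tug1 and Kcnq1ot1 over Lncpint. The order depends on the transcript lengths applied. With counts over the longest transcript, Mir142hg at 29.0 TPM stood above Tug1 at 25.3 TPM. Pvt1 at 8.53 TPM and Neat1 at 6.74 TPM then stood below Kcnq1ot1 at 10.6 TPM. Together the members took 0.322% of all counts in replicate 2 and 0.318% in replicate 1.

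**Figure D1:**
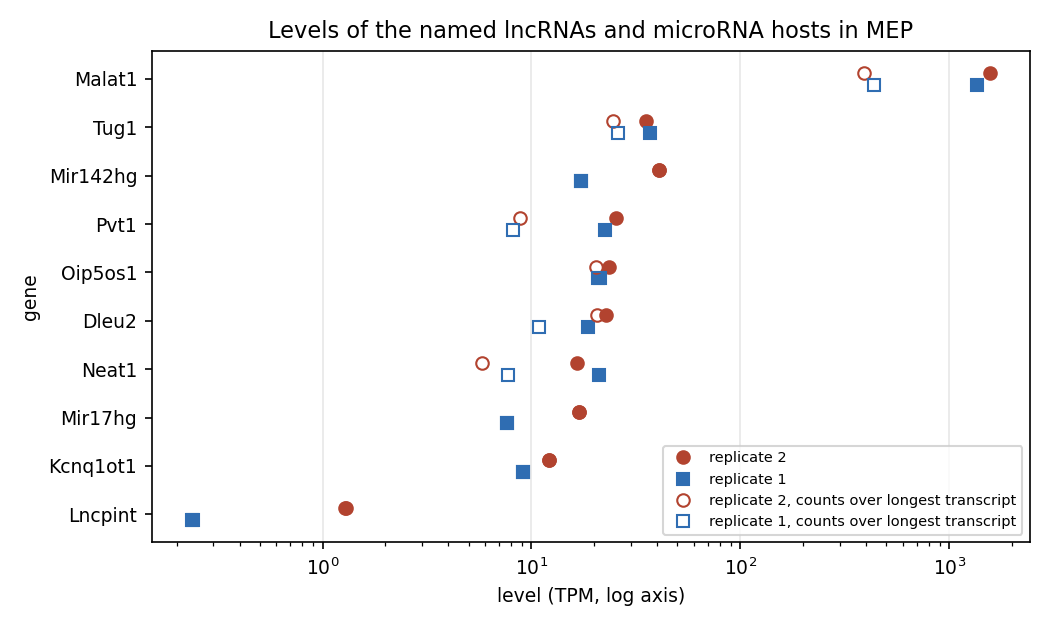
Level of each member in TPM (log axis), with replicate 2 as circles and replicate 1 as squares; filled symbols are the deposited gene TPM, open symbols the gene's counts divided by its longest transcript. Malat1 stood at 1566 TPM in replicate 2 against 1358 TPM in replicate 1, Lncpint at 1.29 TPM in replicate 2 against 0.24 TPM in replicate 1, and the other members between them; open symbols fell well to the left for Malat1, Pvt1 and Neat1.

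Malat1 (ENSMUSG00000092341.2, chromosome 19, 5795690 to 5802672 on the minus strand, GRCm38) is the abundant RNA of nuclear speckles. It measured 1566 TPM in replicate 2 against 1358 TPM in replicate 1, a mean of 1462 ± 147 (SD, n = 2). Among genes annotated as lncRNA it ranked 4 in replicate 2 and 3 in replicate 1. Next to it stood the snoRNA host Gas5, at 1717 TPM in replicate 2 against 1068 TPM in replicate 1. Above both stood Gm42418, at 238845 TPM in replicate 2 against 284070 TPM in replicate 1, and Gm26917, at 4813 TPM against 3341 TPM. TPM is a share of all transcripts, so the Gm42418 level enters every TPM given here. The part of Gm42418 in the differences between libraries was not tested. What RNA the reads on Gm42418 and Gm26917 came from was not examined, so the rank of Malat1 is by annotation only. Malat1 rested on 102735 counts in replicate 2 and 65415 counts in replicate 1. These were 61.9% of all counts on the members in replicate 2 and 68.6% in replicate 1. The protein-coding genes with levels most like those of Malat1 were Rpl12, at 1574 TPM in replicate 2 against 1345 TPM in replicate 1, and Npm1, at 1616 TPM in replicate 2 against 1367 TPM in replicate 1; likeness was the distance of log2(TPM + 1) over 2 libraries, which says little.

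Most of the Malat1 gene value in TPM was assigned to short annotated transcripts. Malat1-201, the full-length RNA of 6983 bases with 1 exon, held 79.8% of the gene's counts in replicate 2 and 85.8% in replicate 1. Because TPM divides by length, it nevertheless made up only 19.9% of the gene's TPM in replicate 2 and 27.5% in replicate 1. Its own level was 311 TPM in replicate 2 against 373 TPM in replicate 1, so the gene value was 5.03 times that of the full-length RNA in replicate 2 and 3.64 times in replicate 1. An annotated transcript of 656 bases, to which the annotation used for names gives no name, was assigned 668 TPM in replicate 2 against 326 TPM in replicate 1. Malat1-203, spliced from 2 exons near the RNA's start and 485 bases long, was assigned 341 TPM in replicate 2 against 379 TPM in replicate 1. Malat1-202, with 2 exons near the end of the gene, was assigned 183 TPM in replicate 2 against 233 TPM in replicate 1. The named short forms lie within the span of Malat1-201, so the division of reads among them is an estimate. All Malat1 counts taken over the full length gave 390 TPM in replicate 2 against 435 TPM in replicate 1, which still put Malat1 above every other member.

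Neat1 (ENSMUSG00000092274.2, chromosome 19, 5824708 to 5845478, minus strand) lies next to Malat1 and is the scaffold on which paraspeckles form. It measured 16.6 TPM in replicate 2 against 21.0 TPM in replicate 1 (mean 18.8 ± 3.17, SD, n = 2). In gene TPM, with short forms included, Malat1 was thus 94.6 times Neat1 in replicate 2 and 64.5 times in replicate 1. The ratio depends on the estimated transcript mix. With counts over the longest transcript, Malat1 stood at 390 TPM in replicate 2 against 435 TPM in replicate 1. Neat1 then stood at 5.78 TPM in replicate 2 against 7.70 TPM in replicate 1. The short polyadenylated form, Neat1-202, measured 12.5 TPM in replicate 2 against 15.5 TPM in replicate 1. The long form Neat1-201, of 20771 bases and needed for paraspeckles, measured 4.06 TPM in replicate 2 against 5.55 TPM in replicate 1. The short form was 3.08 times the long one in replicate 2 and 2.79 times in replicate 1. The short form lies wholly within the first part of the long one, so reads there were split by estimate. Frmd8, a protein-coding gene upstream of Neat1 on the same strand, measured 5.87 TPM in replicate 2 against 5.85 TPM in replicate 1. The 3 short RNA features annotated inside Neat1 drew 0 counts in replicate 2 and 28.4 counts in replicate 1.

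The 3′ ends of these RNAs are shown because they set the forms apart: Malat1 and long Neat1 are cut by RNase P and protected by an A-rich tract in a triple helix, while short Neat1 is polyadenylated. Sequences are GENCODE M21 transcripts on GRCm38, minus strand, 5′ to 3′; capitals mark the A-rich motif AAAAAGCAAAA, taken as the last 11 bases of Neat1-201, or the poly(A) signal AATAAA.
Malat1 (chr19:5795982-5796041): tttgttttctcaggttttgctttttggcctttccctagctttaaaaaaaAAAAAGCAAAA
Neat1-201 (chr19:5824708-5824767): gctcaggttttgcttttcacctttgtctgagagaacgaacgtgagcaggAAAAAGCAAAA
Neat1-202 (chr19:5842307-5842366): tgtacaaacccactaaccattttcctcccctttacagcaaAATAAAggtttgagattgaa
The motif stood once in Malat1-201, with another 292 bases annotated after it. The motif, searched on the transcript strand, occurred in 77 of 18930 lncRNA transcripts (0.407%) and within the last 60 bases of 5. AATAAA stood in the last 40 bases of 28.6% of those transcripts. These are matches of letters and not measured ends.

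Genes whose proteins work with these RNAs were present throughout. All 11 paraspeckle protein genes listed reached 10 TPM in both libraries, and their medians were 76.9 TPM in replicate 2 against 62.8 TPM in replicate 1. Hnrnpk measured 413 TPM in replicate 2 against 454 TPM in replicate 1, Tardbp 274 TPM in replicate 2 against 189 TPM in replicate 1, and Sfpq, an essential paraspeckle protein, 201 TPM in replicate 2 against 224 TPM in replicate 1. All 7 speckle protein genes reached 10 TPM, and their medians were 143 TPM in replicate 2 against 131 TPM in replicate 1, led by Srsf2 at 437 TPM in replicate 2 against 308 TPM in replicate 1, Srrm2 at 322 TPM in replicate 2 against 266 TPM in replicate 1, and Srrm1 at 188 TPM in replicate 2 against 144 TPM in replicate 1. Of 6 genes that make or bind the Malat1 3′ end, all reached 1 TPM and 4 reached 10 TPM in both libraries. Their highest was Rpph1, the RNA subunit of RNase P, at 5439 TPM in replicate 2 against 4755 TPM in replicate 1. Elac2, the tRNA 3′ end nuclease, and Rpp30, an RNase P protein, each lay between 17.4 and 19.4 TPM in every library.

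Kcnq1ot1 (ENSMUSG00000101609.1, chromosome 7, 143203458 to 143296549, minus strand) is transcribed from inside the Kcnq1 gene against its direction. Its single annotated transcript of 84395 bases is by far the longest of the set. It measured 12.1 TPM in replicate 2 against 9.12 TPM in replicate 1 (mean 10.6 ± 2.13, SD, n = 2), on 39460 counts in replicate 2 and 16886 counts in replicate 1. It was the second largest holder of counts, with 23.8% of the members' counts in replicate 2 and 17.7% in replicate 1. Kcnq1, the potassium channel gene that it overlaps, had 24 counts and 0.22 TPM in replicate 2, and 0 counts in replicate 1, which allows up to 0.188 TPM there. Kcnq1ot1 was 55.1 times Kcnq1 in replicate 2.

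Levels of the other genes in its imprinted domain were spread widely. Of 9 listed, 5 reached 1 TPM in both libraries, and 3 of them reached 10 TPM: Cd81 at 92.5 TPM in replicate 2 against 80.3 TPM in replicate 1, Nap1l4 at 55.2 TPM in replicate 2 against 61.9 TPM in replicate 1, and Tssc4 at 28.0 TPM in replicate 2 against 18.5 TPM in replicate 1. Cdkn1c, a cell cycle inhibitor silenced on the paternal copy, measured 0.49 TPM in replicate 2 and had 0 counts in replicate 1, which allows up to 0.0769 TPM. Ascl2, a transcription factor, had 0 counts in both libraries. Counts do not tell the parental copies apart.

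Tug1 (ENSMUSG00000056579.13, chromosome 11, 3639785 to 3649673, minus strand), a widely expressed lncRNA, was the steadiest of the set in TPM at 35.3 TPM in replicate 2 against 37.1 TPM in replicate 1 (mean 36.2 ± 1.27, SD, n = 2). Tug1-202 made up 57.1% of its TPM in replicate 2 and 50.8% in replicate 1, and Tug1-203 made up 28.4% in replicate 2 and 28.0% in replicate 1. Tug1-201, with 7.21% in replicate 2 and 11.3% in replicate 1, was the least of the 3. The genes with the most similar levels were Slc25a51 at 35.6 TPM in replicate 2 against 36.9 TPM in replicate 1, and Ints7 at 35.3 TPM in replicate 2 against 37.9 TPM in replicate 1. Morc2a, on the opposite strand and overlapping the Tug1 gene, measured 27.3 TPM in replicate 2 against 17.4 TPM in replicate 1. It was 0.775 times Tug1 in replicate 2 and 0.469 times in replicate 1, so the pair did not keep a fixed ratio.

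Oip5os1 (ENSMUSG00000085438.1, chromosome 2, 119594297 to 119607502, plus strand), also called Cyrano, holds a site that pairs with miR-7 almost throughout and leads to that microRNA's destruction. It measured 23.5 TPM in replicate 2 against 21.3 TPM in replicate 1 (mean 22.4 ± 1.53, SD, n = 2). The long form 1700020I14Rik-202, of 8300 bases, made up 84.4% of the gene's TPM in replicate 2 and 97.0% in replicate 1. That form contains the site. The short form 1700020I14Rik-201 measured 3.66 TPM in replicate 2 against 0.64 TPM in replicate 1, on 172 estimated counts in replicate 2 and 17.5 in replicate 1. Oip5, the protein-coding gene on the opposite strand, measured 12.3 TPM in replicate 2 against 10.8 TPM in replicate 1.

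The site is shown beside the microRNA because the form that holds it was the main form in both libraries. It is on GRCm38, plus strand, at bases 2936 to 2959 of the transcript, with the paired bases in capitals; the microRNA is from RefSeq with its seed in capitals.
Oip5os1 site (chr2:119602138-119602161): CAACAAAATCACcaatGTCTTCCa
mmu-miR-7a-5p: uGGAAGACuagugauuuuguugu
The last 7 capitals, GTCTTCC, are complementary to the seed, and the run of 12 capitals before the gap is complementary to bases 11 to 22 of the microRNA. The seed complement alone, searched on the transcript strand, stood in 2201 of 18930 lncRNA transcripts (11.6%), and with the run before it in 1, the Oip5os1 long form. The level of miR-7 was not analysed here.

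Mir17hg (ENSMUSG00000089726.2, chromosome 14, 115042879 to 115046727, plus strand) is the precursor of the miR-17 cluster. It measured 16.8 TPM in replicate 2 against 7.62 TPM in replicate 1 (mean 12.2 ± 6.52, SD, n = 2), on 2192 counts in replicate 2 and 569 counts in replicate 1. Its 1 annotated transcript, of 3536 bases and 2 exons, keeps the 6 hairpins within exon sequence. Mir142hg (ENSMUSG00000084796.1, chromosome 11, 87755577 to 87757270, plus strand) gives the blood-specific miR-142. It measured 40.7 TPM in replicate 2 against 17.3 TPM in replicate 1 (mean 29.0 ± 16.6, SD, n = 2), on 172 counts in replicate 2 and 51 counts in replicate 1. Both hosts were higher in replicate 2, by more in gene TPM than any other member at 1 TPM or more in both libraries.

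The 2 hosts differ in how firmly they were measured. The annotated Mir142hg transcript is 269 bases long, and its miR-142 hairpin lies in the intron, outside the counted sequence. The effective length by which its counts were divided was 109 bases in replicate 2 and 134 bases in replicate 1, so its TPM depends on the fragment lengths of each library more than that of longer members. Protein-coding genes with levels like Mir142hg were Smim5 at 39.5 TPM in replicate 2 against 16.7 TPM in replicate 1, and Adck5 at 37.9 TPM in replicate 2 against 17.7 TPM in replicate 1. Tspoap1, the gene 3271 bases downstream on the same strand, measured 9.58 TPM in replicate 2 against 2.27 TPM in replicate 1, a ratio of 4.22 (95% counting interval 3.65 to 4.90). Supt4a, on the other side, measured 90.3 TPM in replicate 2 against 60.4 TPM in replicate 1.

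Dleu2 (ENSMUSG00000097589.5, chromosome 14, 61602839 to 61682373, minus strand) hosts miR-15a and miR-16-1 in a region often lost in chronic lymphocytic leukaemia. The gene measured 22.9 TPM in replicate 2 against 18.6 TPM in replicate 1 (mean 20.7 ± 2.99, SD, n = 2). The gap at gene level was wider where the estimated mix of transcripts did not enter: the log2 difference was 0.28 in TPM, 0.72 in CPM with TMM factors and 0.86 with counts over the longest transcript. In TPM it combined opposite gaps below it. Dleu2-215, an unspliced transcript of 4098 bases, measured 13.6 TPM in replicate 2 against 4.49 TPM in replicate 1, a ratio of 3.03 (2.72 to 3.38). The other 14 transcripts together measured 9.27 TPM in replicate 2 against 14.2 TPM in replicate 1, a ratio of 0.655 (0.591 to 0.727). That interval pooled 1061 estimated counts in replicate 2 and 560 in replicate 1, and is too narrow for a sum of TPM over transcripts. Part of the replicate 1 sum rested on few counts, such as 3.37 TPM for Dleu2-209 on 16 counts and 1.70 TPM for Dleu2-205 on 12.2 counts. Dleu2-215 was set apart as the transcript with the most TPM in replicate 2, a choice that itself favours such opposite ratios. Dleu2-215 held 66.0% of the gene's counts in replicate 2 and 41.1% in replicate 1.

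The position of that unspliced transcript ties it to the microRNAs. Dleu2-215 runs over chromosome 14, 61627795 to 61631892, and its start overlaps the last 13 bases of the Mir16-1 hairpin; the Mir15a hairpin lies 134 bases upstream of it. It thus covers sequence directly after the hairpins, and holds neither mature sequence printed above. The spliced form with the most TPM was Dleu2-207, with 3 exons between 61632299 and 61648622, which ends before the hairpins and measured 4.53 TPM in replicate 2 against 6.32 TPM in replicate 1. Dleu2-202 measured 3.19 TPM in replicate 2 and was listed at 0 in replicate 1, and Dleu2-209 was listed at 0 in replicate 2 and measured 3.37 TPM in replicate 1 on 16 counts. Trim13, a ubiquitin ligase gene that overlaps Dleu2 on the opposite strand, measured 6.87 TPM in replicate 2 against 3.06 TPM in replicate 1, a ratio of 2.25 (1.79 to 2.83).

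The hairpins themselves had no counts. Of 10 microRNA genes annotated inside the 3 hosts, 9 were measured and all 9 had 0 counts in both libraries; Mir142 itself was not analysed here, while Mir142b on the opposite strand was. With RNA above 200 bases sequenced, mature microRNAs lay outside the measurement, and the effective lengths given to the hairpins ranged between 0 and 8.86 bases. Host levels therefore say nothing on how much microRNA was made. Of 13 microRNA processing genes, 12 reached 1 TPM and 10 reached 10 TPM in both libraries. By mean level, Ago2 led them at 32.3 TPM in replicate 2 against 30.6 TPM in replicate 1, followed by Dgcr8 at 30.5 TPM in replicate 2 against 31.6 TPM in replicate 1 and Drosha at 33.5 TPM in replicate 2 against 26.7 TPM in replicate 1. Ago4 was the exception at 0.42 TPM in each library.

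Pvt1 (ENSMUSG00000097039.4, chromosome 15, 62037986 to 62378096, plus strand) lies downstream of Myc, which encodes a transcription factor of cell growth and whose enhancers the Pvt1 promoter is known to compete for in human cells. It measured 25.5 TPM in replicate 2 against 22.5 TPM in replicate 1 (mean 24.0 ± 2.10, SD, n = 2). Myc, 47612 bases away, measured 196 TPM in replicate 2 against 156 TPM in replicate 1, which was 7.71 times Pvt1 in replicate 2 and 6.94 times in replicate 1. Gene levels were close, but the transcripts behind them were not. Pvt1-206 had the largest share in replicate 2, 33.2%, and 6.11% in replicate 1, whereas Pvt1-205 had 7.04% in replicate 2 and the largest share in replicate 1, 39.97%. Pvt1-203 held 8.14% in replicate 2 and 24.5% in replicate 1, and Pvt1-207 held 18.3% in replicate 2 and 4.40% in replicate 1. Pvt1-209 held 12.6% in replicate 2 and 5.05% in replicate 1. The counts behind these shares were small: 231 in replicate 2 and 22.3 in replicate 1 for Pvt1-206, and 23.2 in replicate 2 and 72.2 in replicate 1 for Pvt1-205.

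Lncpint (ENSMUSG00000044471.7, chromosome 6, 31082565 to 31220488, minus strand), a lncRNA known to respond to p53, was the only member under 1 TPM in a library. It measured 1.29 TPM in replicate 2 against 0.24 TPM in replicate 1 (mean 0.765 ± 0.742, SD, n = 2), on 75 counts in replicate 2 and 8 counts in replicate 1. The ratio of 5.38 had a counting interval of 2.59 to 12.9, and on the log2(TPM + 1) scale the difference was 0.89. All its counts were assigned to Lncpint-201 in both libraries, although by the deposited posterior means that transcript held 87.7% of the gene's TPM in replicate 2 and 48.1% in replicate 1. Mkln1, its protein-coding neighbour on the opposite strand, measured 54.0 TPM in replicate 2 against 60.2 TPM in replicate 1.

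**Figure D2:**
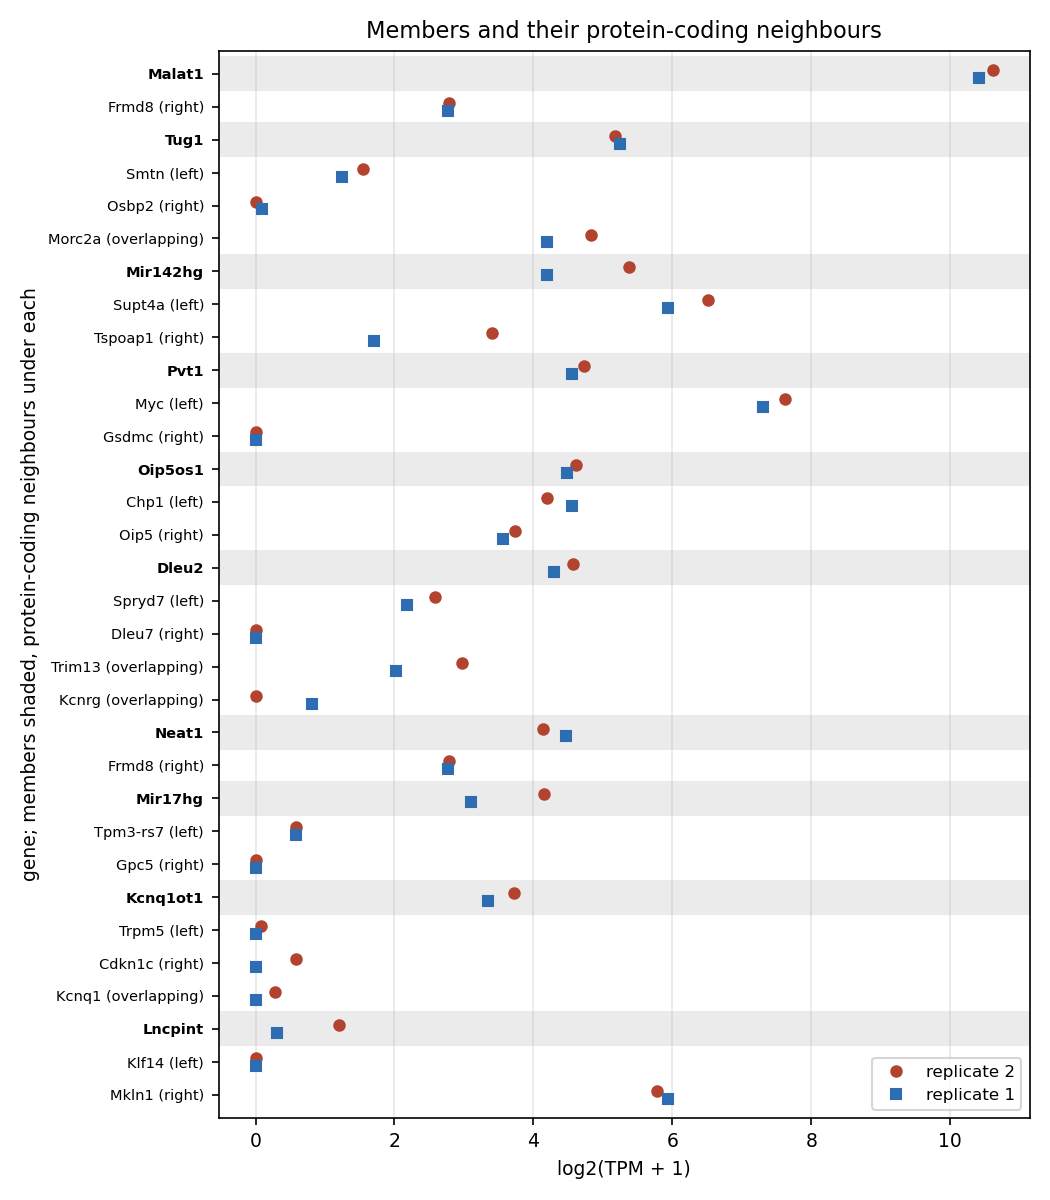
Level of each member (shaded, bold) and of the reported nearest and overlapping protein-coding genes below it, as log2(TPM + 1), where left and right are by genome coordinate, with replicate 2 as circles and replicate 1 as squares. Myc stood above Pvt1 in both libraries, Kcnq1 and Cdkn1c were near 0 beside Kcnq1ot1, and Tspoap1 beside Mir142hg and Trim13 over Dleu2 were higher in replicate 2.

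Across the set, differences between the libraries were mostly small. Of the 10 members, 2 were past 2-fold on the log2(TPM + 1) scale. The share was 11.3% of the 11438 genes with a mean of at least 1 TPM and 24.6% of the 619 lncRNA genes among them. Lncpint, with a mean of 0.765 TPM, fell under that minimum and was still counted among the 10. The 2 members past 2-fold, Mir142hg and Mir17hg, were higher in replicate 2, a direction past 2-fold in 6.92% of genes and 15.8% of lncRNA genes. None of the members was past 2-fold lower, against 4.35% of genes. The share of members past 2-fold was near that of lncRNA genes. The log2 difference was 1.19 for Mir142hg, with a ratio of 2.36 (1.71 to 3.29), and 1.05 for Mir17hg, with a ratio of 2.21 (2.01 to 2.43). Intervals cover counting error only. With CPM scaled by edgeR's TMM factors, a share of counts with no correction for length, differences were taken as log2(CPM + 1). They were 0.54 for Mir142hg and 0.93 for Mir17hg, and no member was past 2-fold, against 6.29% of genes. The added 1 shrinks differences between small CPM values. Without it, the CPM ratios were 1.71 for Mir142hg, 1.95 for Mir17hg and 4.75 for Lncpint. The B-lineage sum was likewise higher in replicate 2, at 126 TPM against 7.14 TPM in replicate 1, with all 7 genes past 2-fold. All 6 MEP markers were within 2-fold. The part of B-lineage RNA in the Mir142hg and Mir17hg differences was not tested.

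The median gene was itself higher by 0.18 in replicate 2 on the log2(TPM + 1) scale, and by 0.01 with TMM factors. The members' median difference was 0.24 in TPM and 0.09 with TMM factors, and 6 of 10 lay above the median of all genes in TPM. In TPM, 8 of 10 members were higher in replicate 2, and with TMM factors 5 of 10. Malat1 had a log2 difference of 0.21 in TPM, 0.02 with TPM rescaled over protein-coding genes, and -0.33 with TMM factors. Its TPM counted over the longest transcript alone gave -0.16, so the sign turned with the transcript lengths applied to its counts. Pvt1 also changed sign, with a log2 difference of 0.17 in TPM and -0.07 with TMM factors, as did Oip5os1, with 0.13 in TPM and -0.20 with TMM factors. Neat1 was lower in replicate 2 on both scales, at -0.33 in TPM and -0.58 with TMM factors, and its ratio was 0.787 (0.753 to 0.823). The neutrophil sum was lower in replicate 2 as well, at 6.39 TPM against 1882 TPM in replicate 1, with all 8 genes past 2-fold; the part of neutrophil RNA in the Neat1 difference was not tested. Tug1 was lower by a log2 difference of -0.07 in TPM and -0.25 with TMM factors. Kcnq1ot1 was higher on both scales, by 0.38 in TPM and 0.24 with TMM factors.

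**Figure D3:**
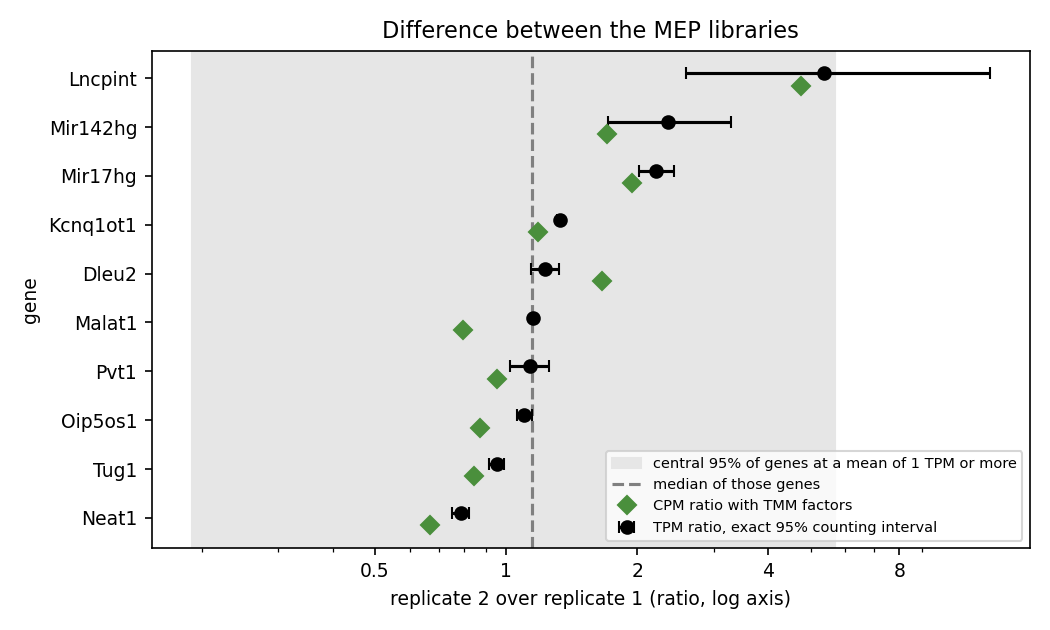
Ratio of replicate 2 over replicate 1 for each member (log axis), in TPM with exact 95% counting intervals (black) and in CPM with TMM factors (green); the grey band holds the central 95% of TPM ratios of genes with a mean of at least 1 TPM, 0.190 to 5.68, and the dashed line is their median. All 10 members lay within the band in TPM; Malat1, Pvt1 and Oip5os1 lay above 1 in TPM and below 1 with TMM factors.

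The estimated shares of transcripts differed between the libraries for several members. Of the 7 members with more than 1 annotated transcript, 4 had the same leading transcript in both libraries: Tug1, Neat1, Oip5os1 and Lncpint. The leading transcript differed for 3: Malat1, Dleu2 and Pvt1. Over all genes with 2 or more transcripts and some signal in both libraries, 66.6% kept their leading transcript, and 73.7% of those at 5 TPM or more did. Neat1 was the steadiest of the multi-transcript members with 2 forms seen, with Neat1-202 at 75.5% of the gene's TPM in replicate 2 and 73.6% in replicate 1. For Malat1 the short unnamed transcript was 2.05 times as high in replicate 2 (1.97 to 2.12). The other 4 transcripts together were at 0.870 times (0.862 to 0.879). That interval pooled their counts and leaves out how TPM was split among them, so it is too narrow. The unnamed transcript was set apart for having the most TPM in replicate 2, which itself favours such opposite ratios. The full-length Malat1-201 was lower in replicate 2 while the gene value was higher.

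**Figure D4:**
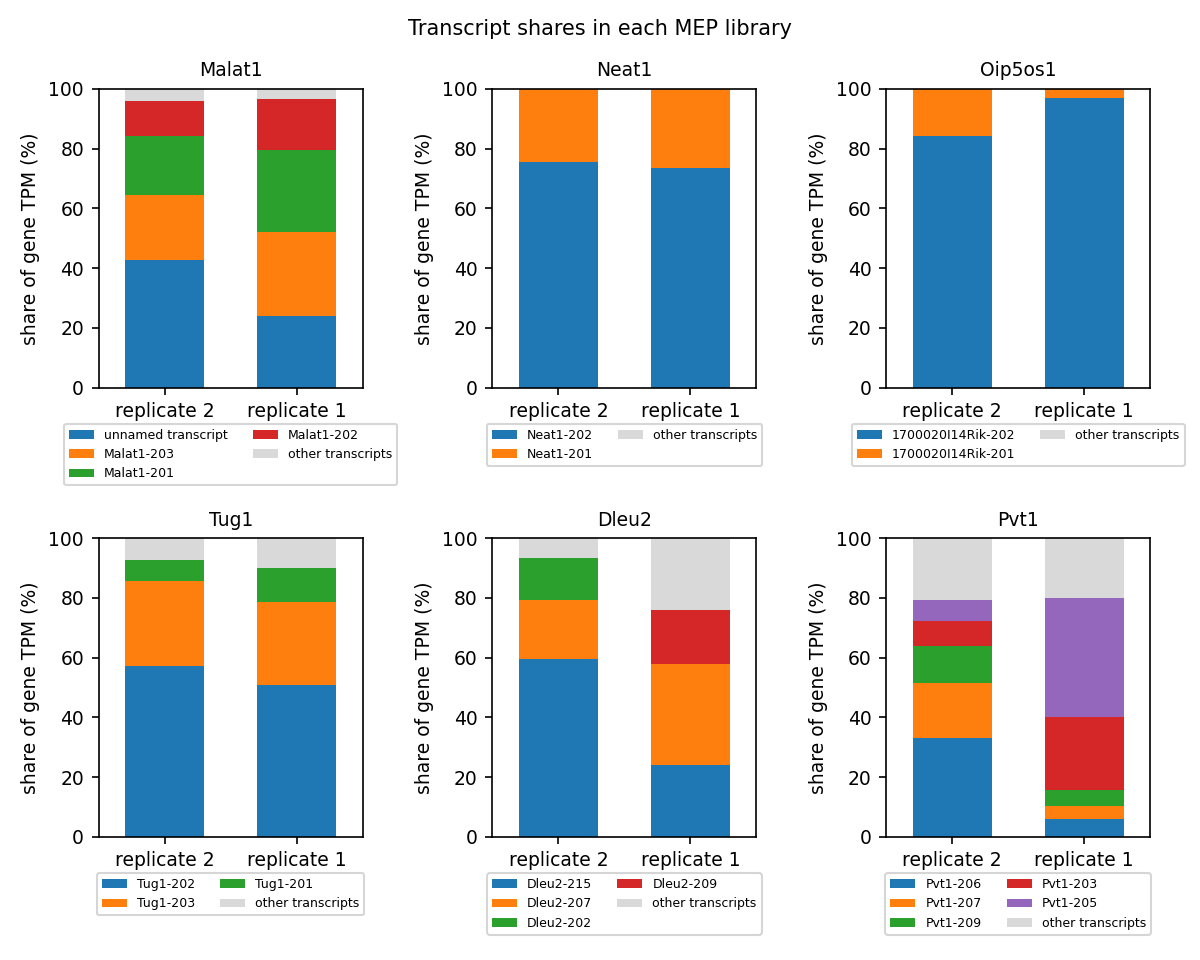
Share of each gene's TPM assigned to its annotated transcripts (percent) in replicate 2, left, and replicate 1, right, for the 6 members with more than 1 transcript above 0; transcripts under 10% in both libraries are pooled in grey. Neat1, Tug1 and Oip5os1 kept their leading form, while the leading forms of Malat1, Dleu2 and Pvt1 differed between the libraries.

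Other lncRNAs set the scale for the members. Of 15 other named lncRNAs, 6 reached 1 TPM in both libraries and 2 reached 10 TPM: Lockd, a lncRNA next to the cell cycle inhibitor Cdkn1b, at 35.9 TPM in replicate 2 against 19.2 TPM in replicate 1, and Norad at 16.2 TPM in replicate 2 against 25.9 TPM in replicate 1. Ftx measured 14.1 TPM in replicate 2 against 6.88 TPM in replicate 1. Xist, the X-inactivation RNA of female cells, the imprinted lncRNA H19, and Miat had 0 counts in both libraries, and Meg3 had 1 count in replicate 2 and 0 in replicate 1. Of 13 snoRNA host genes measured, 9 reached 10 TPM in both libraries, and their medians were 57.7 TPM in replicate 2 against 49.9 TPM in replicate 1. Malat1 was 0.912 times Gas5, the highest of them, in replicate 2 and 1.27 times in replicate 1 in gene TPM. With its counts over the full length, Malat1 lay below the gene TPM of Gas5 in both libraries. Next among the snoRNA hosts were Snhg5 at 321 TPM in replicate 2 against 196 TPM in replicate 1 and Snhg3 at 237 TPM in replicate 2 against 150 TPM in replicate 1, while Snhg11, Snhg14 and Snhg18 stayed under 1 TPM in both.

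Several members overlap genes on the other strand. Kcnq1ot1 overlaps Kcnq1, Tug1 overlaps Morc2a, and Dleu2 overlaps Trim13 and Kcnrg. Signal tracks of both strands were named beside the tables, but whether the counting used strand is not given in the sources used here. Where exons of such pairs overlap, reads may have been shared, and these values are uncertain to that extent. Kcnrg lies outside every annotated Dleu2 exon, and had 0 counts in replicate 2 and 12 counts in replicate 1.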

How the data were processed

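Total RNA above 200 bases was sequenced from 2 libraries of MEP cells, per the labels. The authors quantified genes and transcripts against mm10 and GENCODE annotation M4, per the README beside the tables; for the aligner and quantifier, no name is given in the sources used here. Expected counts, as the authors deposited them, are estimated reads per feature, and the authors computed TPM over all 69691 features after correction for effective length. Transcript shares are the deposited percent of gene TPM. Credibility bounds of TPM, a deposited signal, were read and not used for results. Depth was 51510347 counts in replicate 2 and 30016974 counts in replicate 1.

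GENCODE M21 on GRCm38 gave names and coordinates by unversioned gene identifier, for 42462 of 43346 genes; Oip5os1, Norad, Morrbid and Snhg16 were matched through RefSeq synonyms, and Snhg1, Snhg4, Snhg7 and Snhg8 were not matched. Both samples form 1 group by their cell type label, so no p-value was computed. Differences are log2(TPM + 1), replicate 2 minus replicate 1, called past 2-fold, over genes with a mean of at least 1 TPM. Ratios carry exact (Clopper-Pearson) 95% intervals on counts rounded to whole numbers, which cover counting error only, since reads without molecular identifiers are not independent molecules; 0 counts were taken to allow up to 3.

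The text names the 10 members, their transcripts at 10% of the gene's TPM in either library, neighbouring genes, the 3 highest genes of each list and its genes under 1 TPM in both libraries up to 4, and for 3 members the 2 nearest genes in level. Of the genes this rule names, 1 neighbour is not reported here. The members and lists were chosen with earlier results of these data known. Mature microRNAs came from RefSeq and other sequences from GENCODE M21 transcripts. Alternatives were other pseudocounts, minimums and folds, posterior mean TPM, TPM rescaled over protein-coding nuclear genes, CPM with edgeR 4.0.16 (TMM) or DESeq2 1.42.0 size factors in R 4.3.3, and leaving out a library; counts over the longest transcript were added after seeing the data. The steps were tested on simulated data and run in Python 3.11.15 (pandas 2.3.3, numpy 2.4.6, matplotlib 3.10.9, scipy 1.17.1).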

Additional observations from a re-analysis of the deposited data

Results flagged for a closer look

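Counts fell on other annotated features that lie inside members on the same strand and that the gene values leave out; each sum below exceeded the 3 counts that a count of 0 allows, and with no control sample nothing else was available to set it against. Inside Dleu2 these features held 1195 counts in replicate 2 and 387 counts in replicate 1, chiefly on Gm37472 (700 counts in replicate 2 and 196 counts in replicate 1) and Gm37420 (402 counts in replicate 2 and 146 counts in replicate 1), both in introns. Inside Lncpint they held 567.33 counts in replicate 2 and 240.55 counts in replicate 1, more than the 75 and 8 counts of Lncpint itself in replicates 2 and 1; most were on the processed pseudogene Gm13835, whose reads may be shared with near-identical copies elsewhere. Inside Neat1 they held 28.42 counts in replicate 1, inside Pvt1 8.44 counts in replicate 1, and inside Tug1 8.32 counts in replicate 2, with 0 counts in the other library for each.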

How the results depend on the processing

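No paired analysis was possible because both libraries belong to 1 group. The median over members of mean TPM, 21.6, became 50.3 when TPM was rescaled over protein-coding nuclear genes and 13.99 with counts over the longest transcript, an alternative chosen after seeing the data; CPM with TMM or DESeq2 factors gave 74.7 each, on another unit. Leaving out a library gave 19.8 to 23.2. The number of members at 10 TPM in both libraries, 7, became 4 at a minimum of 20 TPM and ranged from 7 to 9 with 1 library left out; the number at 1 TPM ranged from 9 to 10. The 2 members past 2-fold became 0 with TMM and 0 with DESeq2 factors, both on the log2(CPM + 1) scale. On that scale 6.29% of all genes were past 2-fold with either. Without the added 1, the Lncpint ratio with TMM factors was 4.75. The cause of the change was otherwise not tested. In TPM the 2 members became 3, with Lncpint added, at a 1.5-fold limit (27.5% of all genes). The same held with a pseudocount of 0.1 (15.6%) or 0.5 (13.2%). With rescaled TPM (12.7% of all genes) the 2 were Mir142hg and Lncpint, since Mir17hg came to 0.93. With counts over the longest transcript the Malat1 difference was -0.16, against 0.21 in gene TPM. The number of members with the same leading transcript was 4 with posterior means and 3 among members at 5 TPM or more. Counts were fewest for Lncpint, Mir142hg and the Pvt1 transcripts; 2 libraries with no second group allow no test of any difference.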
